A study of Mus musculus with 10 samples.

Results

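The genes described here are the SR proteins, the hnRNPs and the subunits of splicing factor SF3 in mouse liver, taken as every RefSeq mouse symbol that starts with Srsf, Hnrnp, Sf3a or Sf3b. RefSeq held 43 such symbols, and 40 of them had a probe on the array, among 21613 named genes. These 40 genes were measured by 68 of the array's 55681 probes. Of the 40, 39 were tested: 10 Srsf, 20 Hnrnp, 3 Sf3a and 6 Sf3b genes. Srsf12 was not well above background on any array, and Hnrnpa1l2-ps, Hnrnpa1l2-ps2 and Srsf3-ps had no probe that was matched to them.

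Liver RNA of 10 male mice was measured on Agilent 1-colour expression arrays, 1 array per mouse. All 10 mice carried a miR-221 transgene (TG221) on a B6D2F2 background and were 4 to 6 weeks old at the start. The first group held 6 mice that received metformin and CCl4, and the second held 4 mice that received CCl4 without metformin. Every mouse was gavaged for 14 weeks with 20% CCl4 in olive oil, a solvent that injures hepatocytes. Metformin, a drug for type 2 diabetes, was given by mouth each day at 300 mg/kg, beginning 3 weeks after the first CCl4 dose, and livers were taken at an end-point of 24 weeks, which the labels do not define as an age or as a time on study. The cell type label of the arrays is hepatocellular carcinoma and the tissue label is liver. The promoter of the transgene is not given in the sources used here, and no group without the transgene or without CCl4 was analysed here.

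Splicing removes introns from a new transcript and joins its exons. SR proteins, which carry domains rich in arginine and serine, mostly bind exons and favour their inclusion, whereas many hnRNPs bind exons or introns and favour skipping. SF3a and SF3b are the protein complexes of the U2 particle that hold it on the intron's branch point. Several of these genes, SR protein genes above all, make alternative transcripts that are degraded, and probes of 1 gene can read different transcripts.

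Levels below are log2 processed signals minus the array's 75th percentile, so that 0 is the signal at that percentile and 1 unit is a doubling. The 75th percentile itself was 237 to 363 signal units, and 51.2% to 54.9% of the probes of an array were well above background. Arrays correlated at 0.983 to 0.992 within a group and at 0.960 to 0.975 between groups (Pearson's r across features). The 6 metformin plus CCl4 arrays were on 1 slide and the 4 CCl4 arrays on another, each slide with its own scan, so slide, scan and metformin cannot be told apart. In whole liver, fewer cells of a type and less RNA per cell cannot be told apart either. Summed marker levels, in multiples of the 75th percentile, did not overlap between the groups for 3 of 10 cell type lists. For stellate cells and myofibroblasts the sum was 2.77 to 4.51 with metformin plus CCl4 and 4.79 to 8.23 with CCl4, with 4 of 6 markers called lower. For proliferating cells it was 0.825 to 1.24 with metformin plus CCl4 and 2.11 to 2.54 with CCl4, with 6 of 6 called lower. For erythroid cells and platelets it was 126 to 209 with metformin plus CCl4 and 260 to 416 with CCl4, with 4 of 5 called lower. In the other 7 lists the sums overlapped, but single markers were called lower: 4 of 6 neutrophil, 4 of 8 macrophage and monocyte, 3 of 6 endothelial, 3 of 5 bile duct, 3 of 8 hepatocyte, 1 of 5 B and plasma cell and 0 of 5 T and NK cell markers. No marker of the 10 lists was called higher. By the same rule, given below, 16.7% of all features were called lower and 27.3% higher. The brightest markers weigh most in a sum. The sum of hepatocyte markers was 4762 to 6094 with metformin plus CCl4 and 5920 to 7545 with CCl4. The part of these cell types in the splicing factor results was not tested.

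Splicing factor genes moved in both directions. A gene was called when its limma adjusted p (Benjamini-Hochberg over all 25172 tested features) was below 0.05. By that rule 11 of the 39 genes (28.2%) were lower in metformin plus CCl4 livers, where 16.7% of all features were, and 7 (17.9%) were higher, where 27.3% of all features were. In either direction 18 of 39 (46.2%) were called, near the 44.0% of all features. Of the 39 genes, 11 (28.2%) were lower with groups that did not overlap, beside 11.9% of all features. On the higher side 5 of the 39 had no overlap, beside 20.8% of all features. These were all 11 of the lower calls and 5 of the 7 higher calls. The median log2 fold change of the 39 genes, metformin plus CCl4 over CCl4, was -0.08, beside 0.11 for all features, and 14 of 39 lay above the median of all features. All 11 lower calls held under each of 4 other scalings or background corrections, whereas none of the 7 higher calls held under all 4. Spike-in scaling is among the 4 and lowers every fold change by the same amount, so it cannot weigh lower calls against higher ones. The higher and lower counts were 4 and 13 under quantile normalization, 3 and 11 under median scaling, and 9 and 13 under normexp. Across all 22 refits with another setting or without a mouse, 4 of the 11 lower calls and 0 of the 7 higher calls held. Scaling to spike-in transcripts left 0 higher and 23 lower calls, where 4.60% of all features were higher and 42.6% lower, and moved the median of all features to -0.44.

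**Figure D1:**
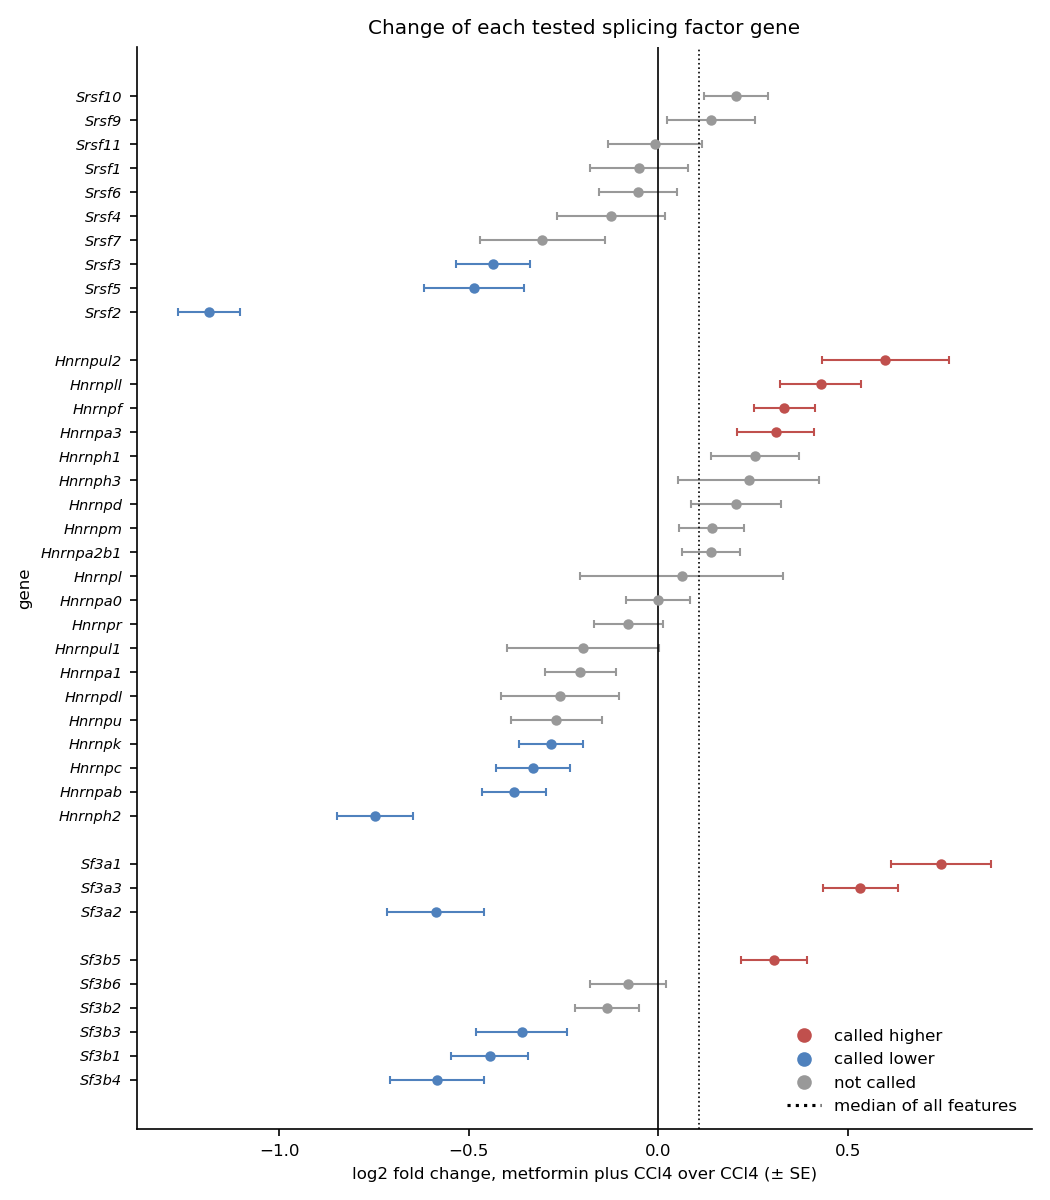
Log2 fold change (metformin plus CCl4 over CCl4, horizontal axis) of each of the 39 tested splicing factor genes, grouped by family, with bars of 1 SE (n = 6 and 4 mice). Colours mark genes called higher, lower or not called, and the dotted line is the median of all features at 0.11. Srsf2 at -1.19 lies farthest to the left and Sf3a1 at 0.75 farthest to the right.

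Among the SR proteins, 3 of 10 tested genes (30%) were lower, beside 16.7% of all features. None was higher (0), beside 27.3% of all features, and 7 were not called. Under spike-in scaling 7 were lower and 0 higher, beside 42.6% and 4.60% of all features. Under normexp 3 were lower and 1 higher, and of all 25172 features 3806 were lower and 6046 higher. Srsf2, also known as SC35, is a marker of the nuclear speckles where splicing factors gather. Its level was 0.83 at the lowest, 0.92 at the median and 1.04 at the highest of the 6 metformin plus CCl4 mice, against 2.21, 2.03, 2.18 and 2.02 in the 4 CCl4 mice. Every metformin plus CCl4 mouse was below every CCl4 mouse, and the space between the groups was wider than either group's whole spread. Srsf2 fell by 1.19 ± 0.08 on the log2 scale (SE), with a limma adjusted p of 1.9e-05, so the CCl4 livers had 2.28 times the signal of the metformin plus CCl4 livers. A second Srsf2 probe fell by 0.95 ± 0.11 (limma adjusted p = 0.000136 over all kept probes).

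Srsf5, also known as SRp40, had the highest mean signal of the family's probes, which is no ranking of the transcripts. Its level was 4.90 at the lowest, 5.09 at the median and 5.48 at the highest with metformin plus CCl4, against 5.56, 5.63, 5.76 and 5.63 with CCl4. The groups did not overlap, although the highest metformin plus CCl4 mouse was close to the lowest CCl4 mouse. Srsf5 fell by 0.49 ± 0.13 (limma adjusted p = 0.0129). Srsf3, the smallest SR protein and an adaptor for mRNA export, had levels of 2.53, 2.67 and 2.81 (lowest, median, highest) with metformin plus CCl4, and 3.35, 3.12, 3.03 and 3.02 with CCl4. Again no metformin plus CCl4 mouse reached the CCl4 mice, and Srsf3 fell by 0.44 ± 0.10 (limma adjusted p = 0.00482). Neither the Srsf5 nor the Srsf3 call held with the slide's first row of arrays alone, at limma adjusted p values of 0.128 and 0.0923.

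The 7 SR protein genes that were not called had log2 fold changes between -0.31 and 0.21. Srsf7, like Srsf3 an export adaptor, was at -0.31 ± 0.16 and Srsf4 at -0.13 ± 0.14. Srsf1, the founding member of the family, was at -0.05 ± 0.13, Srsf6 at -0.05 ± 0.10 and Srsf11 at -0.01 ± 0.12. Srsf9 was at 0.14 ± 0.12 and Srsf10, a repressor of splicing after heat shock, at 0.21 ± 0.08. All 7 had overlapping groups, and a limma adjusted p above the threshold does not show that their levels were equal.

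**Figure D2:**
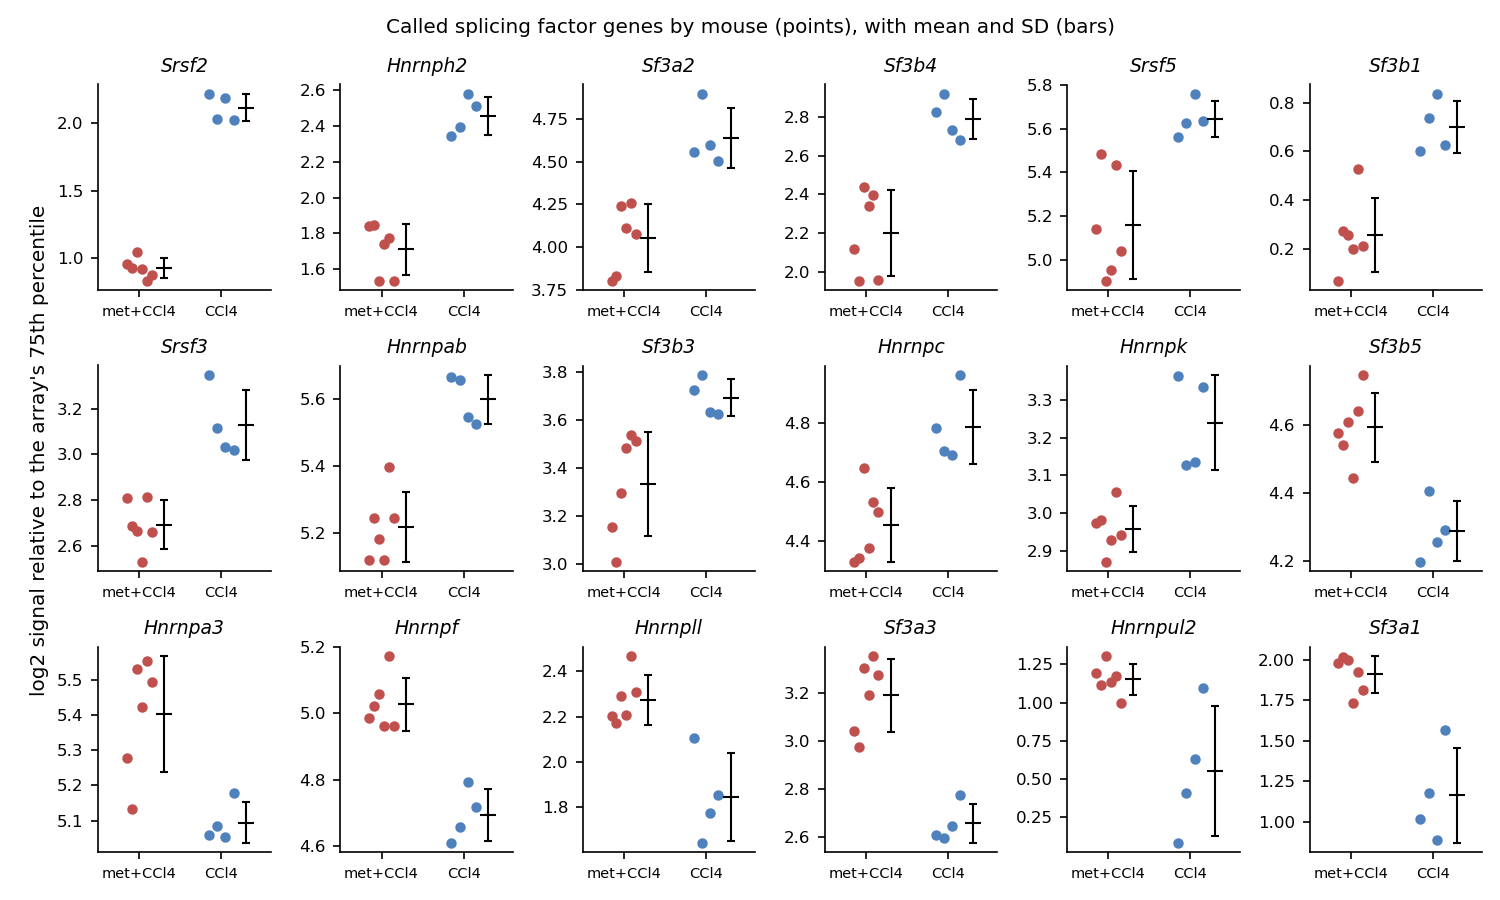
Levels (log2 signal relative to the array's 75th percentile, vertical axes, each on its own range) of the 18 called genes, with 1 point per mouse, 6 mice with metformin plus CCl4 (red) on the left and 4 with CCl4 (blue) on the right, and bars of mean and SD. The groups do not overlap in 16 panels; they overlap for Hnrnpul2 and Hnrnpa3.

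Of 20 tested hnRNP genes, 4 (20%) were lower, beside 16.7% of all features, and 4 (20%) higher, beside 27.3%. The other 12 were not called, and the 40% called in either direction was near the 44.0% of all features. Under spike-in scaling the higher count was 0 and the lower count 10, beside 4.60% and 42.6% of all features. Hnrnph2 belongs with Hnrnph1 and Hnrnpf to the group that binds runs of guanine. Its level was 1.53, 1.75 and 1.84 (lowest, median, highest) with metformin plus CCl4, against 2.34, 2.40, 2.58 and 2.51 with CCl4. The groups were clearly apart, and Hnrnph2 fell by 0.75 ± 0.10 (limma adjusted p = 0.000272), leaving CCl4 livers with 1.68 times its signal in metformin plus CCl4 livers. Hnrnpab, a protein of the A/B group that also binds DNA, had levels of 5.12, 5.21 and 5.40 with metformin plus CCl4, against 5.67, 5.66, 5.55 and 5.53 with CCl4. These groups did not overlap, and the gene fell by 0.38 ± 0.09 (limma adjusted p = 0.00476). The last 2 lower genes were Hnrnpc, which binds uridine tracts, at -0.33 ± 0.10 (limma adjusted p = 0.0186), and Hnrnpk, which binds cytidine-rich sequence through KH domains, at -0.28 ± 0.08 (limma adjusted p = 0.0200). Neither overlapped between the groups, but Hnrnpc was not called without CCl4 mouse 4, at -0.27, nor Hnrnpk without CCl4 mouse 1 or 4, at -0.24 and -0.25.

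Of the 4 higher hnRNP genes, Hnrnpul2, a relative of Hnrnpu with a role in DNA repair, had the largest change. Its level was 1.0, 1.15 and 1.31 (lowest, median, highest) with metformin plus CCl4, against 0.08, 0.41, 0.63 and 1.09 with CCl4. CCl4 mouse 4 lay inside the range of the metformin plus CCl4 mice, and the CCl4 mice were the more scattered, with an SD of 0.43 beside 0.10. Hnrnpul2 rose by 0.60 ± 0.17 (limma adjusted p = 0.0151). Hnrnpll, known from T cells for its part in CD45 splicing, had levels of 2.17, 2.25 and 2.47 with metformin plus CCl4, against 2.11, 1.64, 1.78 and 1.86 with CCl4. The groups did not overlap, with CCl4 mouse 1 just under the metformin plus CCl4 mice, and Hnrnpll rose by 0.43 ± 0.11 (limma adjusted p = 0.00842).

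Hnrnpf had levels of 4.96, 5.0 and 5.17 with metformin plus CCl4, against 4.61, 4.66, 4.79 and 4.72 with CCl4. It rose by 0.33 ± 0.08 (limma adjusted p = 0.00719) with no overlap, opposite to its relative Hnrnph2. Hnrnpa3, another A/B protein, had levels of 5.13, 5.46 and 5.56 with metformin plus CCl4, against 5.06, 5.08, 5.05 and 5.18 with CCl4. Here metformin plus CCl4 mouse 2 lay below CCl4 mouse 4, and the rise was 0.31 ± 0.10 (limma adjusted p = 0.0301). The Hnrnpa3 call was lost without any of metformin plus CCl4 mice 3 to 6 or CCl4 mice 1 to 3, at values of 0.28 to 0.31. Under spike-in scaling Hnrnpul2 was at 0.05, Hnrnpll at -0.12, Hnrnpf at -0.22 and Hnrnpa3 at -0.24, and none of them was called.

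Among the 12 hnRNP genes that were not called, log2 fold changes ran from -0.27 for Hnrnpu, a nuclear scaffold protein, to 0.26 for Hnrnph1. Hnrnpdl was at -0.26, Hnrnpa1 at -0.21, Hnrnpul1 at -0.20 and Hnrnpr at -0.08. Hnrnpa1 is the classic antagonist of Srsf1 in the choice of 5′ splice sites. Hnrnpa0 was at -0.0014, Hnrnpl, which binds CA repeats, at 0.06, Hnrnpa2b1 at 0.14 and Hnrnpm at 0.14. Hnrnpd, also known as AUF1 and a decay factor of AU-rich mRNAs, was at 0.20 and Hnrnph3 at 0.24. Hnrnpl was the least certain, with an SE of 0.27, and all 12 had overlapping groups.

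SF3a has 3 subunits, and the genes of 2 were higher and that of 1 lower. In either direction 44.0% of all features were called. The higher calls were lost under spike-in scaling, where Sf3a1 was at 0.20 and Sf3a3 at -0.02. Sf3a1 is the subunit to which both of the others bind. Its level was 1.73, 1.95 and 2.02 (lowest, median, highest) with metformin plus CCl4, against 1.02, 1.18, 0.89 and 1.57 with CCl4. Every metformin plus CCl4 mouse was above every CCl4 mouse, CCl4 mouse 4 being the nearest, and Sf3a1 rose by 0.75 ± 0.13 (limma adjusted p = 0.00133), to 1.68 times the CCl4 signal. Sf3a3 had levels of 2.98, 3.23 and 3.35 with metformin plus CCl4, against 2.61, 2.60, 2.65 and 2.78 with CCl4. The groups did not overlap and the rise was 0.53 ± 0.10 (limma adjusted p = 0.00174). Sf3a2 went the other way, with levels of 3.80, 4.09 and 4.26 with metformin plus CCl4, against 4.56, 4.90, 4.60 and 4.50 with CCl4. Its groups did not overlap either, and it fell by 0.59 ± 0.13 (limma adjusted p = 0.00399), so CCl4 livers had 1.5 times the signal of metformin plus CCl4 livers. Each Sf3a gene was read by 1 probe.

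The 250 bases before the start of the Sf3a genes are shown because these genes moved in different directions, and those of Srsf2 because it had the largest change. Sequences are RefSeq's for GRCm38.p6, 5′ to 3′ on the gene's strand, and capitals mark CCGGAAG, a motif bound by ETS factors, and GGGCGG, the GC box bound by Sp factors, on either strand (CTTCCGG and CCGCCC on the other strand). The windows are chr11:4160104-4160353 (plus strand) for Sf3a1, chr4:124714611-124714860 (plus) for Sf3a3, chr10:80798485-80798734 (plus) for Sf3a2 and chr11:116853095-116853344 (minus) for Srsf2.
Sf3a1: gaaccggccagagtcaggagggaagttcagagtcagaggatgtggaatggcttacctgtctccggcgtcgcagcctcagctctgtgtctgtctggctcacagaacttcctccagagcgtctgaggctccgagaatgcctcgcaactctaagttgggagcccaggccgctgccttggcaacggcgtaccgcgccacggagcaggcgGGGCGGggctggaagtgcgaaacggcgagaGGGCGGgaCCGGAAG
Sf3a3: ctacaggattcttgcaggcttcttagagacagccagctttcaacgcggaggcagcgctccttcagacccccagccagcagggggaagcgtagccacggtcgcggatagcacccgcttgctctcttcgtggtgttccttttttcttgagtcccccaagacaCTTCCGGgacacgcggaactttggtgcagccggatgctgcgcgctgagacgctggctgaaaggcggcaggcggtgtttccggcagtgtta
Sf3a2: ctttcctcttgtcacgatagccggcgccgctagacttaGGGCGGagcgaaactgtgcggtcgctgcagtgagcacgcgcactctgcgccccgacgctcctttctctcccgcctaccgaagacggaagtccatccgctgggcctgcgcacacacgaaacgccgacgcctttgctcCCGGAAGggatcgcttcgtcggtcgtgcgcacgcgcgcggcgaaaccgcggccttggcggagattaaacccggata
Srsf2: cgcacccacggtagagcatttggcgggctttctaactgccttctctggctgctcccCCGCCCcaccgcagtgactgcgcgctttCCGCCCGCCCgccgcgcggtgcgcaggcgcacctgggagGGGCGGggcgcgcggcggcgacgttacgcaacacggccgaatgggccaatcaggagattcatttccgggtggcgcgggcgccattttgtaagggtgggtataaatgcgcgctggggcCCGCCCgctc
CCGGAAG stands in all 3 Sf3a windows, those of the higher genes and of the lower one, and not in that of Srsf2. GGGCGG stands in the windows of Sf3a1, Sf3a2 and Srsf2 and not in that of Sf3a3; the capitals of Srsf2 include an overlapping pair.

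Promoter entries were found for 35 of the 39 tested genes, in 48 windows, among 32851 windows in all. CCGGAAG stood in 33.3% of the splicing factor windows, those of 12 genes, and in 6.91% of all windows. Of the called genes with an entry, 3 of 4 higher and 3 of 10 lower ones had it. GGGCGG stood in 75% of the splicing factor windows and 32.7% of all, and CCAAT, searched as ATTGG on the other strand, in 47.9% and 33.8%. CACGTG, which reads the same on both strands, stood in 6.25% and 6.02%, and TATAAA, searched as TTTATA on the other strand, in 8.33% and 12.4%. Of the called genes with an entry, GGGCGG was in 3 of 4 higher and 6 of 10 lower ones, and CCAAT in 2 and 7. CACGTG was in 2 of the 4 and 0 of the 10, and TATAAA in 0 and 3. These splits by call rest on few genes and were not tested. GC content was also higher in the splicing factor windows, with a median of 63.8% beside 52.4%, and its part in the motif shares was not tested. A match of letters is a description and not a binding site.

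In SF3b, the complex that places U2 on the branch point, 3 of 6 tested genes were lower, 1 was higher and 2 were not called. Of all features 16.7% were lower and 27.3% higher. Under spike-in scaling 5 of the 6 were lower and 0 higher, beside 42.6% and 4.60% of all features. Sf3b4, which contacts the intron just upstream of the branch point, had levels of 1.96, 2.23 and 2.44 (lowest, median, highest) with metformin plus CCl4, against 2.82, 2.92, 2.73 and 2.68 with CCl4. There was no overlap, and it fell by 0.58 ± 0.12 (limma adjusted p = 0.00364). Sf3b1, the large HEAT-repeat subunit that closes around the branch point and is the target of splicing inhibitors such as pladienolide, had levels of 0.07, 0.23 and 0.53 with metformin plus CCl4. In CCl4 mice it was at 0.60, 0.74, 0.84 and 0.63. The highest metformin plus CCl4 mouse was near the lowest CCl4 mouse without overlap, and Sf3b1 fell by 0.45 ± 0.10 (limma adjusted p = 0.00552). Sf3b3, a scaffold subunit built of beta-propellers, was at -0.36 ± 0.12 (limma adjusted p = 0.0329), also without overlap. That call was lost without metformin plus CCl4 mouse 1 or 3 and without CCl4 mouse 1, 2 or 3, at values of -0.38 to -0.33.

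Sf3b5, one of the small subunits, was the higher one. Its level was 4.44, 4.59 and 4.75 with metformin plus CCl4, against 4.20, 4.41, 4.25 and 4.29 with CCl4. The lowest metformin plus CCl4 mouse stood just above the highest CCl4 mouse, and the gene rose by 0.31 ± 0.09 (limma adjusted p = 0.0155); under spike-in scaling it was at -0.25 and not called. Sf3b2, the partner of Sf3b4, was at -0.14 ± 0.08 and Sf3b6, the subunit that touches the branch point adenosine, at -0.08 ± 0.10, and neither was called. Phf5a, an SF3b subunit whose symbol the rule does not take, was at 0.07 ± 0.08 and not called.

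Differences between genes on the same array do not move when 1 amount is taken off a whole array, as in scaling to a percentile, the median or the spike-in transcripts. Quantile normalization and normexp can move them. For 7 such differences, chosen after the values were seen and partly because the genes had moved in opposite directions, the values are given as a description with no test. Sf3a1 minus Sf3a2 averaged -2.14 ± 0.26 in metformin plus CCl4 mice and -3.48 ± 0.37 in CCl4 mice (SD, n = 6 and 4), a shift of 1.33, against 1.40 under quantile normalization and 1.45 under normexp. Sf3a3 minus Sf3a2 shifted by 1.12, and the groups did not overlap in either difference. Sf3a1 minus Sf3a3 averaged -1.28 ± 0.22 in metformin plus CCl4 mice and -1.49 ± 0.24 in CCl4 mice. That shift of 0.21 was within the spread of the mice, and the groups overlapped.

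Among the guanine-run binders, Hnrnpf minus Hnrnph2 averaged 3.32 ± 0.16 in metformin plus CCl4 mice and 2.24 ± 0.03 in CCl4 mice (SD, n = 6 and 4), a shift of 1.08, against 1.03 under quantile normalization and 0.98 under normexp. Hnrnph1 minus Hnrnph2 averaged 2.09 ± 0.35 in metformin plus CCl4 mice and 1.08 ± 0.06 in CCl4 mice. Both differences were higher in every metformin plus CCl4 mouse than in any CCl4 mouse. Srsf2, taken here because it had the largest change, minus the median of the other tested splicing factor genes averaged -2.06 ± 0.17 in metformin plus CCl4 mice and -1.05 ± 0.08 in CCl4 mice. Hnrnpul2 minus Hnrnpul1 shifted by 0.80 with overlapping groups. A shift in a difference does not show which of the genes changed.

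**Figure D3:**
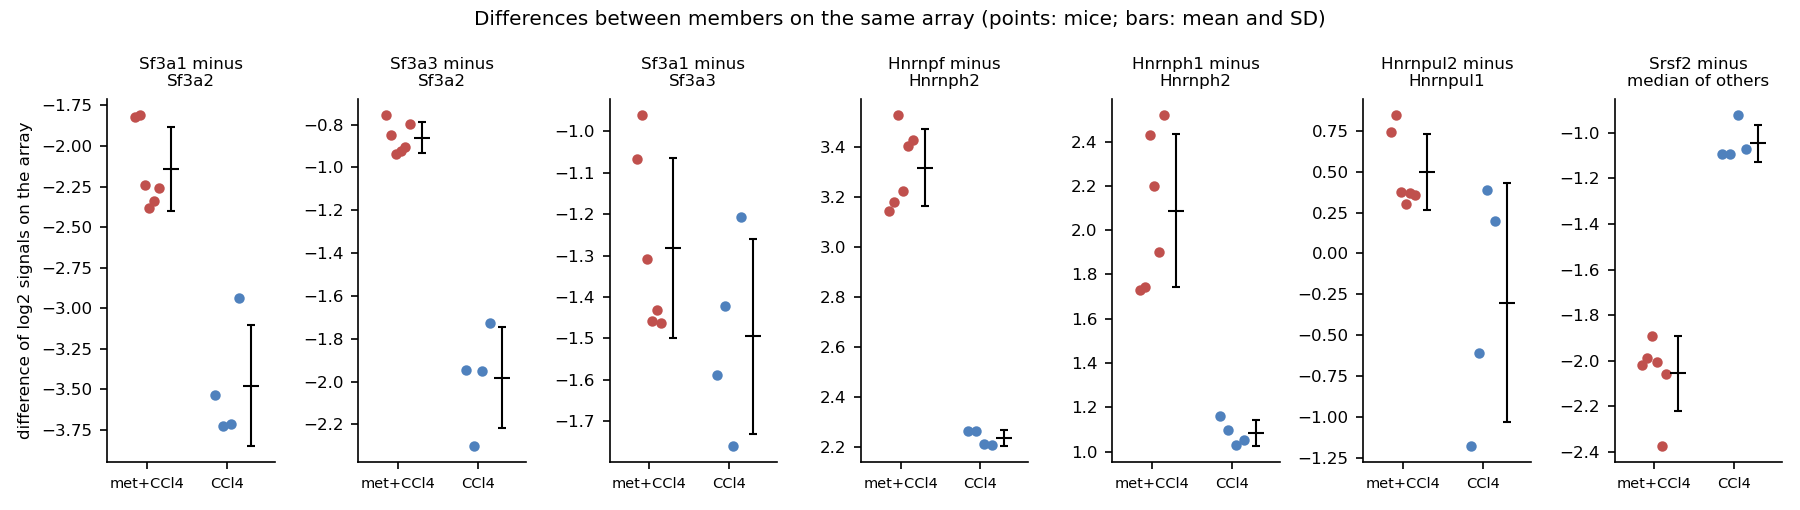
Differences between the log2 signals of splicing factor genes on the same array (vertical axes, each on its own range), 1 point per mouse, 6 mice with metformin plus CCl4 (red) left and 4 with CCl4 (blue) right, with bars of mean and SD. The groups are apart in 5 panels and overlap for Sf3a1 minus Sf3a3 and Hnrnpul2 minus Hnrnpul1.

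Probes of 1 gene did not always move together. Of the 66 kept probes, 12 (18.2%) were called higher, beside 26.7% of all 29576 kept probes, and 15 (22.7%) lower, beside 18.5%. In either direction 27 of the 66 (40.9%) were called, beside 45.2% of all kept probes. Among 18 genes with more than 1 kept probe, 7 had the same call on all probes, 11 had a call on some and none on others, and 0 had calls in both directions. The positions of the probes in the transcripts are not given in the sources used here.

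Hnrnpa1 had the widest span. Its second probe was at 0.11, 0.66, -0.46, -0.16, -0.05 and -0.69 in metformin plus CCl4 mice 1 to 6, against 1.31, 1.20, 1.80 and 0.97 in CCl4 mice 1 to 4. All metformin plus CCl4 mice were below all CCl4 mice, and this probe fell by 1.42 ± 0.25 (limma adjusted p = 0.00127), whereas the brighter probe that stood for the gene was at -0.21 ± 0.09 and not called. Srsf1 was not called on its brightest probe, but its 2 other kept probes rose by 0.56 ± 0.10 (limma adjusted p = 0.00138) and 0.37 ± 0.12 (limma adjusted p = 0.0263). Hnrnpr and Hnrnpa2b1 likewise each had a dimmer probe that rose, by 0.50 ± 0.14 and 0.40 ± 0.10 (limma adjusted p = 0.0144 and 0.00811), beside a brighter one that was not called. These dimmer probes had levels of only -3.65 to -2.60 for Hnrnpr and -2.35 to -1.59 for Hnrnpa2b1. Their brighter probes were at 2.13 to 2.45 and 5.02 to 5.30.

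Some called genes had a dimmer probe that was not called. For Hnrnpab that probe was at 0.29 ± 0.14, opposite in sign to the called one at -0.38, and for Sf3b4 it was at 0.06 ± 0.17 beside -0.58. For Hnrnpc it was at -0.04, for Srsf3 at -0.07 and for Hnrnpf at -0.02. The dimmer Sf3b4 probe had levels of only -3.84 to -3.18, where the called one was at 1.96 to 2.92. Srsf3 had a second lower probe at -0.45, and Hnrnpk had lower probes at -0.28 and -0.44 and 1 more at -0.25 that was not called. The 7 probes of Hnrnpa3 ran from -0.05 to 0.37, and 2 of them were called higher. Srsf7, not called on either probe, was at -0.31 and 0.37. The calls of Hnrnpab, Sf3b4, Hnrnpc, Hnrnpf and Hnrnpa3 were lost when the kept probes of a gene were averaged. Averaging also gave calls to Hnrnpa1 at -0.81, Hnrnpa2b1 at 0.27 and Srsf1 at 0.29 (limma adjusted p = 0.00196, 0.0254 and 0.0428).

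**Figure D4:**
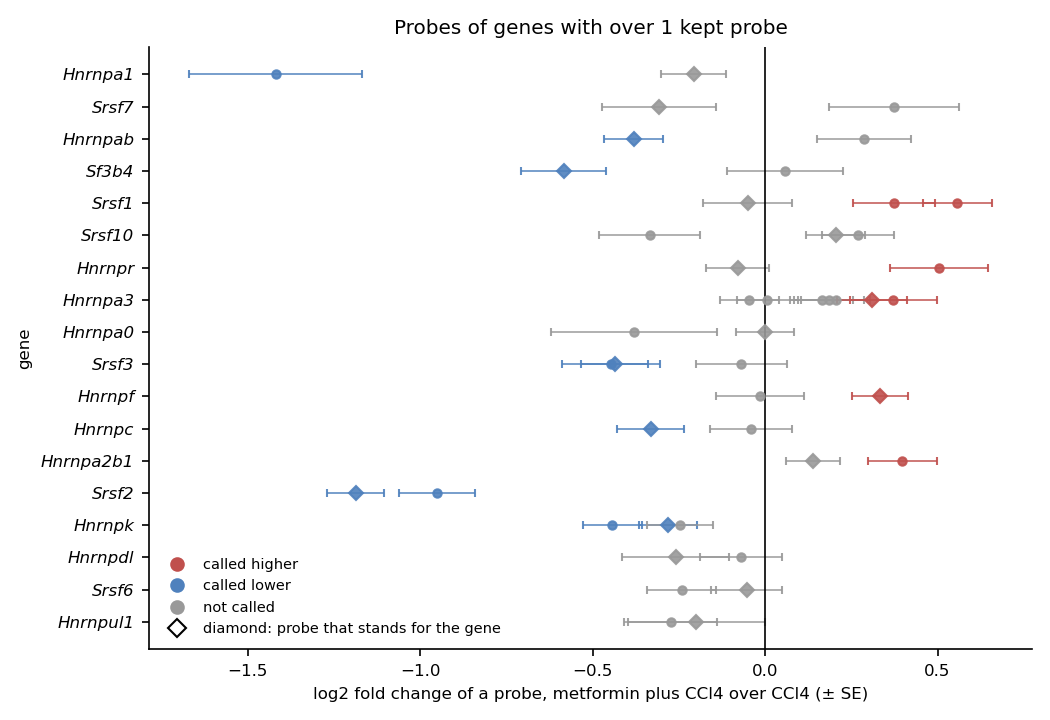
Log2 fold change (metformin plus CCl4 over CCl4, horizontal axis) of each kept probe of the 18 genes with more than 1, with bars of 1 SE and diamonds for the brightest probe, which stands for the gene. The probes of Srsf2 lie together at -1.19 and -0.95, whereas those of Hnrnpa1 lie apart at -1.42 and -0.21.

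Scaling set the sign of several changes, and not only of small ones. The sign of 13 splicing factor genes turned under spike-in scaling, but none of the 13 was called there. Sf3a3 went from 0.53 to -0.02 there and Hnrnpll from 0.43 to -0.12. Of the 7 higher calls, 2 kept their sign under all 4 other scalings or corrections, and all 11 lower calls did. The spike-in control transcripts were brighter on the metformin plus CCl4 arrays, at a mean log2 signal of 12.12 to 12.44, than on the CCl4 arrays, at 11.52 to 12.17, with overlapping ranges. Scaling to them lowers each fold change by the same amount and cannot change the gap between the median of the splicing factor genes and that of all features, which was -0.19. Settings that can change it gave -0.21 under quantile normalization, -0.0968 under normexp and -0.0963 with no filter on dim probes. Relative to zero, 4 lower calls held in each of 22 refits with another setting or without 1 mouse, those of Srsf2, Hnrnph2, Sf3a2 and Sf3b1. Sf3a1 and Hnrnpul2 kept a positive sign under the 4 other scalings or corrections, at 0.20 and 0.05 under spike-in scaling, where neither was called.

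**Figure D5:**
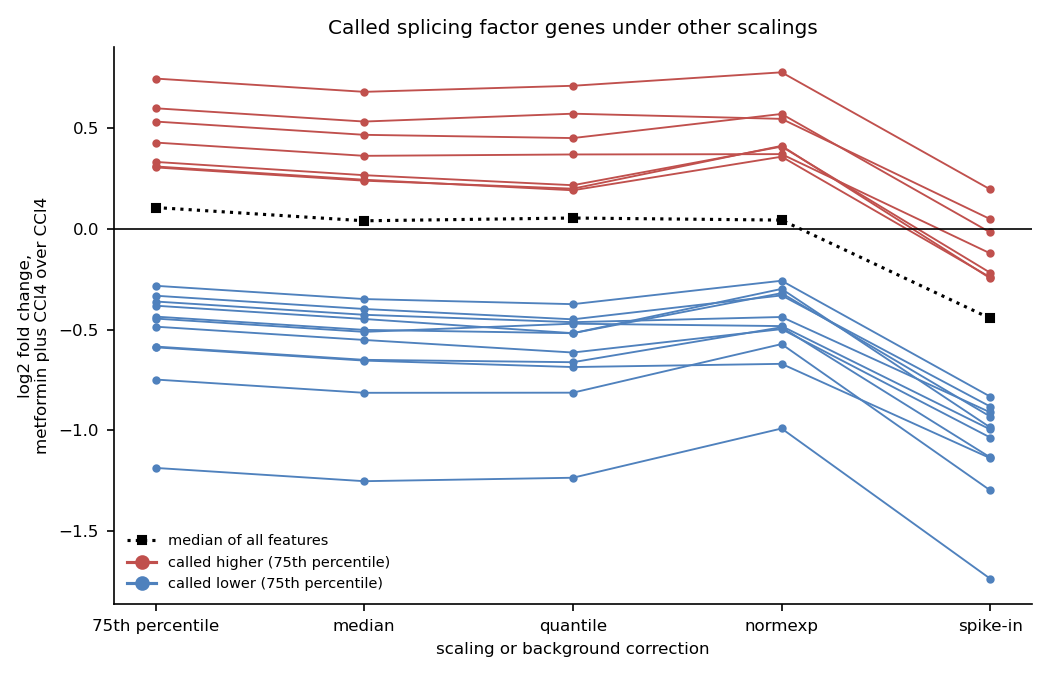
Log2 fold change (metformin plus CCl4 over CCl4, vertical axis) of the 18 called genes under the 75th percentile, the median, quantile normalization, normexp background correction and spike-in scaling (horizontal axis), 1 line per gene, with the median of all features dotted. The lower genes stay below 0 throughout; under spike-in scaling the median of all features is -0.44 and only Sf3a1 and Hnrnpul2 of the higher genes stay above 0.

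Levels also differed between the rows of the slide, but the rows held different mice, so row and mouse cannot be told apart. Metformin plus CCl4 mice 1 and 2 were in the first row of their slide and mice 3 to 6 in the second, and all 4 CCl4 arrays were in the first row of theirs. Within the metformin plus CCl4 mice, 11 of the 39 genes were higher without overlap in the second row and 3 lower, beside 19.3% and 8.88% of all features. Sf3a2, for instance, averaged 4.17 in the second row and 3.81 in the first, and Hnrnpa3 5.50 and 5.21. With first-row arrays alone, 2 mice against 4, Srsf2 was at -1.17 (limma adjusted p = 0.00628), Sf3a2 at -0.83 (0.0152) and Hnrnph2 at -0.62 (0.0186). Sf3a1 was at 0.83 (limma adjusted p = 0.0315) and was the 1 higher call that remained, while Hnrnpa3 was at 0.11 (limma adjusted p = 0.488).

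The authors' deposited table lists probes past an FDR of 0.01 and a fold change of 1.5, with values from the same arrays. It holds 4595 of the array's 55681 probes, and 8 of the 68 probes of these genes, from 7 of the genes. Differences of group means computed from the authors' deposited table were -1.24 and -1.0 for the Srsf2 probes, -0.82 for Hnrnph2, -0.69 for Sf3a2, -0.67 for Sf3b4 and -0.61 for Srsf5. In the authors' deposited table Sf3a1 was at 0.69, and Hnrnpa1 was listed by its second probe alone, at -1.45.

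Other genes of the splicing machinery were counted over 12 lists with 181 tested genes, of which 48 (26.5%) were higher and 33 (18.2%) lower, near the 27.3% and 16.7% of all features. Under spike-in scaling these counts were 4 and 90, where 4.60% of all features were higher and 42.6% lower. The counts of single lists below are small, and are to be read against the shares of all features in the same setting. Counts under spike-in scaling are thus to be read against 4.60% and 42.6%. Among the proteins around U2 and the branch point, 6 of 14 were lower and 0 higher, and under spike-in scaling 12 were lower. Smndc1, an assembly factor, was at -1.36 ± 0.32 with overlapping groups, its CCl4 mice being spread from 0.46 to 2.54. The helicase Dhx15, which takes spliceosomes apart, was at -1.34 and Dnajc8 at -0.63, both without overlap. Among the U1 proteins, Luc7l3 was higher, at 1.77, and Snrpa, which binds U1 RNA directly, was lower, at -0.93. Luc7l3 also stayed higher under spike-in scaling, at 1.22.

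Of 8 proteins of the Sm ring, which holds the spliceosomal RNAs, 3 were higher and 2 lower. Snrpe was at 0.55, Snrpg at 0.38 and Snrpd3 at 0.30, all 3 at or below 0 and not called under spike-in scaling, while Snrpn was at -0.67 and Snrpb at -0.63. Of 8 LSm proteins, 4 were higher and 0 lower, led by Lsm6 at 0.67, Lsm1 at 0.34 and Lsm5 at 0.33, and under spike-in scaling 0 were higher and 1 lower. Of 17 proteins of U5 and the tri-snRNP, 5 were higher, led by Prpf4 at 0.63, Ppih at 0.58 and Txnl4a at 0.52, and 2 lower, Usp39 at -0.85 and the GTPase Eftud2 at -0.67. Of 27 proteins of the Prp19 complex and the catalytic steps, 9 were higher, led by Slu7 at 0.54, Syf2 at 0.48 and Prpf18 at 0.47. In that list 3 were lower, Dhx38 at -0.74, Isy1 at -0.73 and Xab2 at -0.27. Of 9 proteins of the minor spliceosome, which removes a rare class of introns, 5 were higher, led by Snrnp35 at 0.79, Snrnp48 at 0.74 and Zcrb1 at 0.61, and 1 lower, Zmat5 at -0.41. Under spike-in scaling 0 of the U5 and tri-snRNP, Prp19 or minor spliceosome proteins were higher, and 7, 15 and 1 of them were lower, in that order.

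SR proteins are phosphorylated by the Srpk and Clk kinases and carried into the nucleus by Tnpo3. The list of 10 tested genes held these kinases and the importer and also Ppp1ca, a phosphatase subunit that was not called. In it 3 were higher, Clk2 at 0.59, Clk3 at 0.57 and Tnpo3 at 0.43, and 3 lower, Srpk1 at -0.66, Prpf4b at -0.48 and Dyrk1a at -0.32. Under spike-in scaling Clk2 was at 0.04, Clk3 at 0.02 and Tnpo3 at -0.12, and 6 of the 10 were lower. Of 17 SR-related coactivators, 3 were higher, Rsrc1 at 0.36, Scaf11 at 0.36 and Son, a scaffold of nuclear speckles, at 0.29, and 3 lower, Thrap3 at -0.69, Arglu1 at -0.49 and the helicase Ddx39b at -0.40. All 3 higher ones were negative under spike-in scaling, between -0.26 and -0.19, where 9 of the 17 were lower.

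Of 18 proteins of the exon junction complex and nonsense-mediated decay, the pathway that degrades transcripts with early stop codons, 5 were higher and 4 lower. Upf3b was at 1.22, Acin1 at 1.01 and Smg6 at 0.79, while Rnps1 was at -0.96, the kinase Smg1 at -0.64 and Magohb at -0.49; Upf3b and Acin1 stayed called higher under spike-in scaling, at 0.66 and 0.46, where 10 of the 18 were lower. Of 41 other RNA-binding regulators, 10 were higher and 6 lower. Rbm5 was at 1.23, Taf15 at 0.75 and Celf1 at 0.63. Ptbp2 was at -1.19, Matr3 at -0.75 and Ptbp1, a repressor that binds pyrimidine tracts, at -0.52. Under spike-in scaling 1 of these 41 was higher, Rbm5 at 0.68, and 18 were lower.

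Cirbp and Rbm3, RNA-binding proteins induced by mild cold, did not share a call. Cirbp had levels of 3.25, 3.57, 2.92, 3.22, 3.84 and 3.13 in metformin plus CCl4 mice 1 to 6, against 4.63, 4.50, 4.69 and 3.96 in CCl4 mice 1 to 4. The groups did not overlap, with CCl4 mouse 4 the nearest to the metformin plus CCl4 mice, and Cirbp fell by 1.12 ± 0.20 (limma adjusted p = 0.00136). Rbm3 was at 0.14 ± 0.13 (limma adjusted p = 0.408), with overlapping groups.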

How the data were processed

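Liver RNA (100 ng, integrity number above 8) was labelled with Cy3 and measured on 10 arrays, per the labels' protocols. Scanner files as deposited give spot intensity on a linear scale, background-subtracted and detrended by Feature Extraction 10.7.3.1, per the file headers, and not normalized between arrays. The deposited flags for spots above background, saturated or irregular were used as given; 135 to 179 spots per array were left out as irregular and 0 were saturated. The authors also deposited log2 values of 4595 probes, quantile-normalized and filtered at an FDR of 0.01 and a fold change of 1.5, per the file's first line. These followed quantile-normalized log2 intensities of the same arrays at a Pearson r of at least 0.9999 across probes, which fixes scale and direction; any further centring is unknown. Column medians were 7.87, 7.88, 7.84, 7.78, 7.81 and 7.81 in the 6 metformin plus CCl4 columns, in mouse order, and 7.76, 7.79, 7.83 and 7.84 in the 4 CCl4 columns.

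Groups and mouse numbers came from the sample titles. The log2 intensity minus the array's 75th percentile was used; repeated spots were averaged within an array. A probe was kept if 1 of the groups had it well above background on 75% or more of its arrays (29576 of 55681). Accessions were matched without versions to RefSeq symbols (28664 probes, 21613 genes). For each gene the probe brightest on average across the 10 arrays was taken, and unnamed probes were kept singly, giving 25172 features. Levels of different probes are not comparable. Groups were compared with limma 3.58.1 in R 4.3.3 (lmFit, eBayes, two-sided, Benjamini-Hochberg over all features, adjusted p below 0.05), tested on simulated data first. The titles do not say that mouse numbers pair the groups, and p-values measure the spread between these mice.

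Members and lists were chosen with earlier results of these data known. Genes whose levels are given in both groups (lowest, median and highest of the 6 metformin plus CCl4 mice, each CCl4 mouse) were the called members with the 8 largest changes in each direction and the brightest member of each family; from each list, up to 3 higher and 3 lower called genes with the largest changes were named with their log2 fold change, and both cold-inducible genes. A gene that this rule takes from the U1 list is not reported here. Alternatives covered scaling to the median, to spike-in transcripts and by quantiles, normexp background correction (offset 50, on median intensities because no mean column was read), probe filters, averaged probes, array weights, slide row, the mouse number as a block, each mouse left out and the authors' deposited table; merging unnamed probes by accession was added after seeing the data. Array number, 6 and 4, limits the precision.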

Additional observations from a re-analysis of the deposited data

Results flagged for a closer look

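Each of the 39 tested genes was checked in both groups for a mouse far from the others of its group, 78 checks in all, and 2 were found; chance alone gives about 1 in 20. Srsf4 was at 3.41 in metformin plus CCl4 mouse 5, against 2.82 to 3.00 in the other metformin plus CCl4 mice, so that the gap took 0.692 of the group's range. Sf3b6 was at 4.23 in CCl4 mouse 3, against 3.90 to 3.95 in the other CCl4 mice, with the gap at 0.847 of the range. Neither gene was called.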

How the results depend on the processing

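The count of higher splicing factor genes, 7, became 4 under quantile normalization, 3 under median scaling, 0 under spike-in scaling, 2 with slide row as a covariate and 1 with first-row arrays only. Of all 25172 features, 6866 were higher in the main setting. That became 6145 under quantile normalization, 5478 under median scaling and 1159 under spike-in scaling. The count of lower splicing factor genes, 11, became 23 under spike-in scaling, and their median log2 fold change -0.63. Lower calls among all features went from 4206 to 10725 there. Features called in either direction, 11072, became 7800 with slide row as a covariate and 6650 with first-row arrays only. In the 12 lists, 48 higher genes became 29 under median scaling, 4 under spike-in scaling and 23 with first-row arrays only, and 33 lower ones became 90 under spike-in scaling. The deviations of same-numbered mice correlated at -0.15, -0.11, 0.08 and -0.01. These few values do not show a pairing by mouse number and cannot exclude one. With the mouse number as a block there were 2 higher and 7 lower splicing factor genes, 7249 features and 23 higher list genes. Leaving out each mouse in turn gave 6 to 7 higher and 9 to 11 lower splicing factor genes, medians of -0.09 to -0.05 and 9409 to 10883 features; 6 of the 7 higher and 8 of the 11 lower calls held in all of these.

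Signs turned as follows. Under spike-in scaling: all features' median -0.44, Hnrnpa2b1 -0.41, Hnrnpa3 -0.24, Hnrnpd -0.35, Hnrnpf -0.22, Hnrnph1 -0.30, Hnrnph3 -0.31, Hnrnpl -0.49, Hnrnpll -0.12, Hnrnpm -0.41, Sf3a3 -0.0173, Sf3b5 -0.25, Srsf10 -0.35, Srsf9 -0.41. With slide row as a covariate, and likewise with the first row only: Hnrnpa0 0.0188, Hnrnpl -0.499, Sf3b6 0.0366, Srsf1 0.0724, Srsf9 -0.0809. Under normexp: Hnrnpl -0.0529, Hnrnpr 0.0054, Srsf1 0.106. With averaged probes: Hnrnpr 0.212, Srsf1 0.293, Srsf7 0.0333. Hnrnpl was at -0.0049 under median scaling and -0.0390 with the block, and Srsf11 at 0.0196 with array weights. With a mouse left out, Hnrnpa0 ran from -0.0447 to 0.0293, Hnrnpl from -0.0472 to 0.240, Srsf1 from -0.154 to 0.0495, Srsf6 from -0.121 to 0.0408 and Srsf11 from -0.0544 to 0.0533. Spike-in scaling subtracts 1 amount from every fold change by construction; for the other settings the cause was not tested.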

Other observations

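Among the metformin plus CCl4 mice, mouse 5 had the highest level for 17 of the 39 splicing factor genes and mouse 1 for 0. Among the CCl4 mice, mice 1 and 3 had the highest level for 13 genes each and mouse 4 the lowest for 13. Such counts over all features are not given here, so these cannot be called particular to splicing factor genes.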
